A study of Homo sapiens with 8 samples.

Results

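LSD1 occupancy was examined at 6 genes of the epithelial-mesenchymal transition (EMT), SNAI1, SNAI2, ZEB1, ZEB2, TWIST1 and VIM, in MDA-MB-231 cells, a human triple-negative breast cancer line of mesenchymal character. CUT&RUN with an anti-LSD1 antibody was done in parental and RCOR2-KO1 cells, with 2 libraries per genotype, and the authors called peaks against libraries made with normal rabbit IgG. RCOR2 is a CoREST-family corepressor that binds LSD1, and KO1 is a CRISPR/Cas9 knockout line. The methods mention pooling of several knockout clones after describing another line, and whether KO1 was such a pool in MDA-MB-231 is not given in the sources used here. The summit lists cannot show the loss of RCOR2, since they hold no measure of its expression. The paper examined RCOR2 protein in parental and KO1 cells of this line by immunoblot. Each list gives the single base of highest signal of every peak, with a strength value that is the −log10 of the caller's p or q, on GRCh37 (hg19). A gene was represented by every summit inside a fixed window, which was chr20:48589-48616 kb for SNAI1, chr8:49820-49844 kb for SNAI2, chr10:31597-31829 kb for ZEB1, chr2:145131-145288 kb for ZEB2, chr7:19145-19168 kb for TWIST1 and chr10:17260-17290 kb for VIM. These windows held 61 of the 201526 summits of the 4 lists. Summits at most 500 bp apart were joined into 1 region, which gave 24 regions of 68148 over the genome.

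LSD1 removes methyl groups from lysine 4 of histone H3 and acts in complexes with CoREST proteins and histone deacetylases. SNAI1 and SNAI2 are zinc finger repressors whose N-terminal SNAG domain binds LSD1 and brings it to epithelial genes such as CDH1. ZEB1 and ZEB2 are zinc finger homeodomain repressors and TWIST1 is a basic helix-loop-helix factor, and these factors recognize E-boxes, short sites of the form CANNTG. VIM codes for vimentin, the intermediate filament protein of mesenchymal cells, and is a standard marker of EMT. The study itself looked at LSD1 at RNF43 and CIITA, and reported its enrichment at both as unaffected in RCOR2-KO1 cells. The question here is whether the genes of the EMT program carried LSD1 and whether its rank there differed after RCOR2 loss.

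The RefSeq promoter table (GRCh38.p14) held ZEB1, ZEB2 and VIM. The 250 bases before the start are shown for each, since VIM and ZEB1 had the strongest summits and ZEB2 held the region that was in the parental lists only. E-boxes are in capitals and were searched as CANNTG, which reads the same on both strands. The positions are in GRCh38 and were not set against the GRCh37 summits. ZEB1 has 7 starts in the table, of which the most upstream is shown (chr10:31318167-31318416, plus strand), ZEB2 is at chr2:144520120-144520369 (minus strand), and VIM is at chr10:17227991-17228240 (plus strand).
ZEB1: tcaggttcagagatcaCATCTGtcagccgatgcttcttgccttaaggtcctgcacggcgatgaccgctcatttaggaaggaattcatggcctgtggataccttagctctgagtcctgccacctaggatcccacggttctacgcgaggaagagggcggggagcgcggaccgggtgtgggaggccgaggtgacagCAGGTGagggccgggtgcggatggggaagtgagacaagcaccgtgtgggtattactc
ZEB2: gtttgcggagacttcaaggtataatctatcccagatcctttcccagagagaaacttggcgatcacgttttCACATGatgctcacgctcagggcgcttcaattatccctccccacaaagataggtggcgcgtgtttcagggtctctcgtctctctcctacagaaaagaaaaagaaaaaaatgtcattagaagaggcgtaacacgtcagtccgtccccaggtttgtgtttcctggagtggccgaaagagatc
VIM: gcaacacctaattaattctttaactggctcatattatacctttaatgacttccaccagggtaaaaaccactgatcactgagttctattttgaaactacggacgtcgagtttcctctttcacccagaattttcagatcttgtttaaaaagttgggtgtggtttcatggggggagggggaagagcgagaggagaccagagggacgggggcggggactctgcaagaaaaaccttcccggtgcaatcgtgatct

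The ZEB1 stretch held 2 E-boxes, 1 of them CAGGTG, the form that ZEB and SNAI zinc fingers bind. Of the 7 ZEB1 starts in the table, 4 held an E-box in this stretch and 2 held CACCTG or CAGGTG. The ZEB2 stretch held 1 E-box, CACATG, and the VIM stretch held 0. Of the 35116 promoters in the table, 61.8% held at least 1 CANNTG and 17.5% held CACCTG or CAGGTG in the same 250 bases, so these matches are common. A match is a string of letters and not a measured site. In the same RefSeq order, the antisense genes ZEB1-AS1, ZEB2-AS1 and VIM-AS1 are the immediate neighbours of ZEB1, ZEB2 and VIM, and CUT&RUN signal carries no strand.

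LSD1 summits were found in 5 of the 6 windows in every library, and TWIST1 had none in any. The strength of a summit was read as a percentile among the summits of the same library, with 100 as the highest, because −log10 values move with library depth. Genotypes were compared at single regions by two-sided exact permutation tests, in which 0.333 is the least p that 4 libraries can give, a value above any usual threshold. The lists held 47354 to 54467 summits. The strongest summit of the VIM window had a percentile of 95.4 and 90.4 in the parental and 96.7 and 93.6 in the KO1 libraries. For ZEB1 the values were 70.2 and 70.9 in the parental and 71.9 and 79.3 in the KO1 libraries. SNAI1 reached 51.8 and 48.1 in the parental and 34.4 and 58.0 in the KO1 libraries. VIM was thus highest and ZEB1 next in every library, with no overlap between them or with the other genes.

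SNAI2 reached 47.2 and 54.4 in the parental and 40.1 and 47.9 in the KO1 libraries, a range that overlapped with that of SNAI1. For ZEB2 the values were 14.5 and 36.7 in the parental and 4.67 and 9.89 in the KO1 libraries. Over the 4 libraries the order was VIM (94.0 ± 2.74, mean ± SD, n = 4), ZEB1 (73.1 ± 4.18), SNAI1 (48.1 ± 10.0), SNAI2 (47.4 ± 5.85) and ZEB2 (16.4 ± 14.1). SNAI1 and SNAI2 differed by less than their spread, and the highest ZEB2 value, in parental replicate 2, was above the lowest SNAI1 value, in KO1 replicate 1. The windows differed in length, and a longer one has more chances of a high summit. The longest, ZEB1 at 232 kb, ranked above the SNAI1 and SNAI2 windows of 27 and 24 kb, whereas ZEB2 at 157 kb was the lowest of these 5, and the part of length in this order was not tested.

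**Figure D1:**
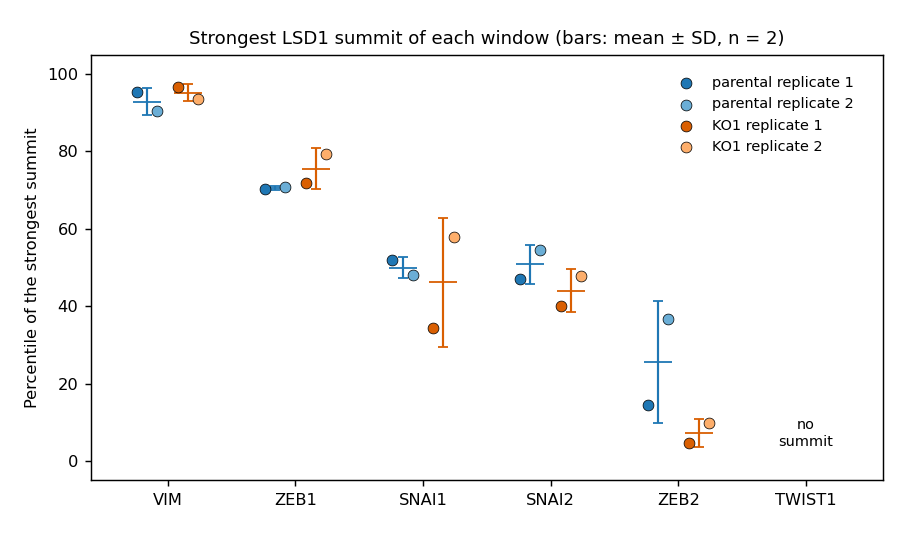
Percentile of the strongest LSD1 summit in each window (y axis, 0 to 100 within its own list) for the 6 genes (x axis), with 1 point per library and bars for the mean ± SD of the 2 libraries of a genotype. VIM lies between 90.4 and 96.7, ZEB1 between 70.2 and 79.3, ZEB2 at 36.7 or below, and TWIST1 has no summit.

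The order depends on where the windows end. Just outside the low end of the SNAI2 window, 4.35 kb away, a region at chr8:49815604-49815648 had percentiles of 96.2 and 94.7 in the parental and 94.6 and 93.8 in the KO1 libraries. At 3.48 kb below the SNAI1 window, chr20:48585470-48585523 had percentiles of 78.4 and 83.3 in the parental and 64.3 and 79.4 in the KO1 libraries. At 1.50 kb below the VIM window, chr10:17258357-17258499 had percentiles of 80.4 and 88.3 in the parental and 94.3 and 95.5 in the KO1 libraries. These 3 regions were chosen after their values were seen, and they are not counted among the 24.

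Of the 24 regions, 10 were found in all 4 lists, 7 in 2 lists and 7 in a single list, so 41.7% were in all 4 against 52.6% over the genome. The regions of a single list were at percentiles of 0.342 to 47.2. Beyond counts, the shared regions were also of lower rank than the genome, with a median of their mean percentiles of 44.9 against 60.1 for all 35861 regions in all 4 lists. The summits of a shared region lay within 31 to 911 bp of each other, with a median of 202 bp against 103 bp over the genome. The windows differed in how densely these regions stood. VIM held 3 shared regions in 30 kb, a number reached by 2.47% of 97901 stretches of that length along the genome, whereas ZEB1 held 4 in 232 kb, a number reached by 31.6% of such stretches. SNAI1, SNAI2 and ZEB2 held 1 each, as many as or fewer than 23.4%, 21.5% and 59.6% of stretches of their lengths. A shared region in these windows was thus not unusual. The VIM density rested on the joining distance, as the window held 1 shared region at 250 bp (22.5% of stretches), 3 at 1000 bp and 2 at 2000 bp (8.86%).

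**Figure D2:**
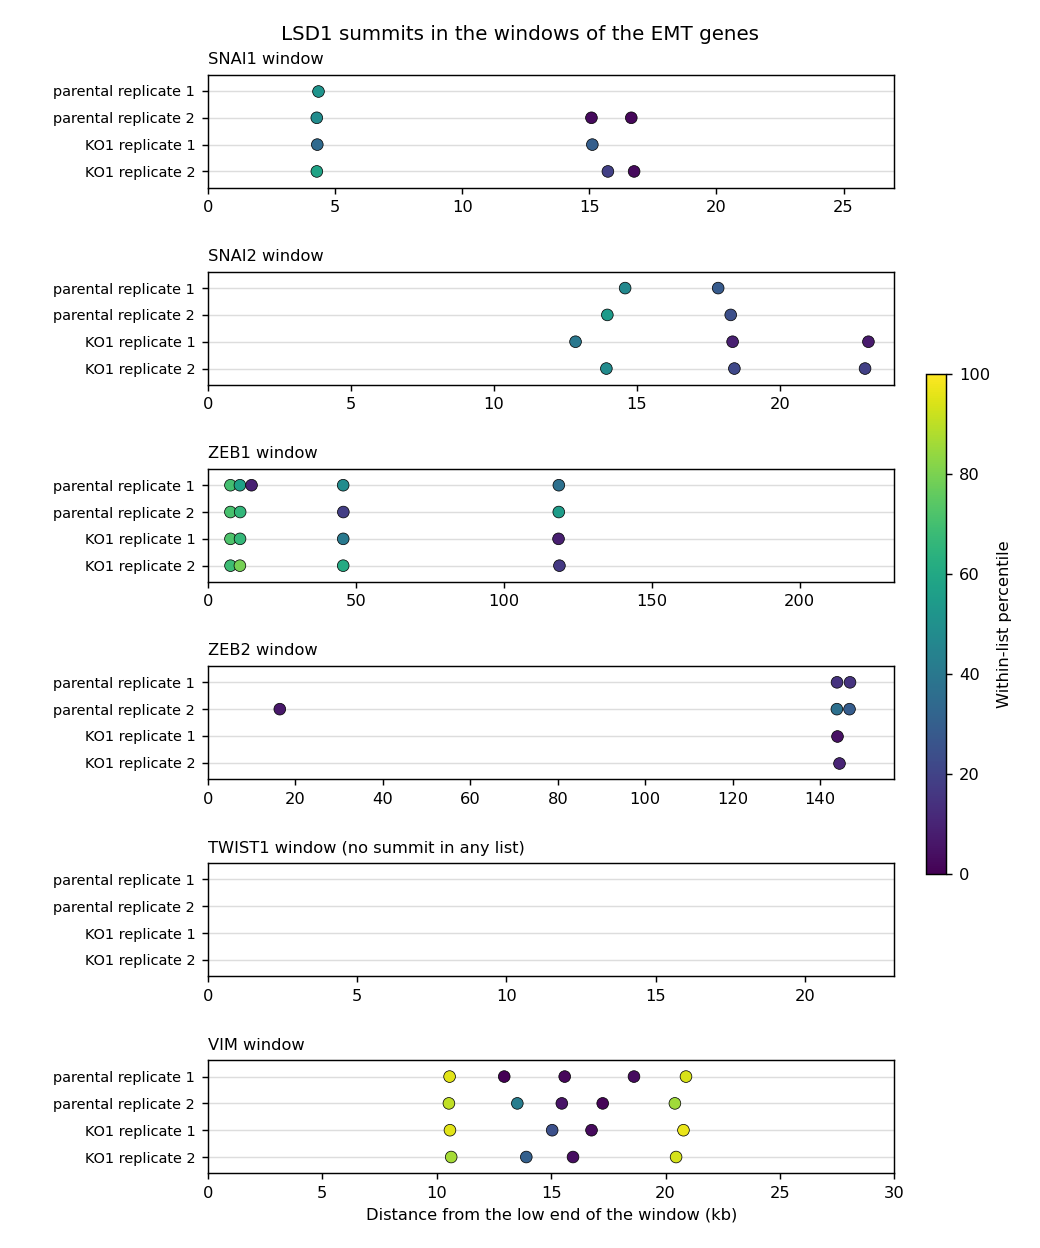
Position of each LSD1 summit from the low end of its window (x axis, kb, a separate scale for each gene) in the 4 libraries (rows), coloured by within-list percentile. The outer VIM summits are the strongest in every library. ZEB1 has summits at the same 4 places in every library and a weak one at 14.7 kb in parental replicate 1 alone. The weak ZEB2 summit at 146.8 kb is in the parental rows only, and the TWIST1 rows are empty.

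SNAI1, the zinc finger repressor that binds LSD1 directly, had 1 region in all 4 lists and weak summits further along its window. The shared region, chr20:48593279-48593310, stood 4.29 kb from the low end of the window, which is the upstream side of the gene. Its percentile was 51.8 and 48.1 in the parental and 34.4 and 58.0 in the KO1 libraries, and the difference of -3.79 points was decided by KO1 replicate 1 (exact permutation test, p = 1). Without that library the difference was 8.01. The 3 further places between 15.1 and 16.7 kb had percentiles of 1.68 to 29.7, none of them in parental replicate 1.

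SNAI2, the close relative of SNAI1, had its strongest summits spread over 1734 bp. In the parental libraries they lay at 49834585 for replicate 1 and 49833963 for replicate 2. In the KO1 libraries the positions were 49832851 for replicate 1 and 49833929 for replicate 2. At 500 bp only the replicate 2 summits of each genotype joined, at chr8:49833929-49833963. At 2000 bp, a distance added after seeing the data, the summits of all 4 lists joined there. Read as the strongest summit of the window, the difference was -6.77 points with overlapping genotypes (exact permutation test, p = 0.667). The difference was -1.21 with windows widened by 5 kb, which takes in the strong region outside.

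The region of SNAI2 found in all 4 lists, chr8:49837838-49838405, had percentiles of 28.5 and 24.1 in the parental and 8.81 and 21.7 in the KO1 libraries. Both KO1 libraries were below both parental libraries, although KO1 replicate 2 was below parental replicate 2 by less than the parental libraries differed. The mean difference was -11.0 points (exact permutation test, p = 0.333). The difference was -4.52 without KO1 replicate 1 and -17.5 without KO1 replicate 2. At chr8:49842974-49843092, the KO1 lists each had a summit, at percentiles of 7.21 and 18.8, whereas the nearest summits of the parental lists were 5136 and 4697 bp away. No other of the 24 regions was present in the KO1 pair alone. Such presence applied to 4.99% of the 49474 regions that were in both lists of a genotype over the genome, and to 1 of the 12 such regions in the windows.

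ZEB1, the repressor of CDH1 and of the miR-200 genes, had 4 regions in all 4 lists, of which those near the low, upstream end of the window were the strongest. The first, chr10:31604570-31604610, had percentiles of 70.2 and 70.9 in the parental and 71.9 and 68.5 in the KO1 libraries. Here the genotypes overlapped and differed by -0.39 points (exact permutation test, p = 1), and the direction turned under 3 other settings. The second, chr10:31607783-31607869, had percentiles of 57.7 and 65.9 in the parental and 66.8 and 79.3 in the KO1 libraries. The KO1 values were all above the parental ones, by 11.2 points on average (exact permutation test, p = 0.333), although KO1 replicate 1 exceeded parental replicate 2 by less than the parental libraries differed. The difference was 5.02 without KO1 replicate 2 and 17.5 without KO1 replicate 1.

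Further into the ZEB1 window, the ranks were lower and the libraries less alike. At chr10:31642686-31642741, 45.7 kb from the low end, the percentiles were 48.1 and 18.2 in the parental and 40.4 and 60.6 in the KO1 libraries. The genotypes overlapped and differed by 17.4 points (exact permutation test, p = 0.667), of which 2.39 remained without parental replicate 2. At chr10:31715476-31715780, 118.6 kb from the low end, the percentiles were 36.7 and 55.0 in the parental and 8.87 and 16.8 in the KO1 libraries. Both KO1 libraries were below both parental libraries there, with a difference of -33.0 points (exact permutation test, p = 0.333) that ranged from -42.2 to -23.9 as single libraries were left out. The −log10 values were 12.2 and 21.7 in the parental and 4.80 and 6.43 in the KO1 libraries. This was the largest difference among the 10 shared regions, and it was singled out after its values were seen. The median difference of the 197 shared regions within 5 Mb of it was -0.98, and whether a change was confined to nearer regions was not tested. A weak summit at 14.7 kb was found in parental replicate 1 alone.

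ZEB2, the paralog of ZEB1, had its summits near the high end of the window, which is the upstream side of this gene on the minus strand. At chr2:145274827-145275258 the percentiles were 14.5 and 36.7 in the parental and 4.67 and 9.89 in the KO1 libraries. Both KO1 libraries were below both parental libraries, although KO1 replicate 2 was below parental replicate 1 by less than the parental libraries differed. The mean difference was -18.3 points (exact permutation test, p = 0.333). Parental replicate 2 carried much of this value, which was -7.27 without it and -29.4 without parental replicate 1. At chr2:145277731-145277848 the parental lists each had a summit, at percentiles of 14.5 and 28.9, whereas the nearest summits of the KO1 lists were 2904 and 2473 bp away. No other of the 24 regions was present in the parental pair alone, a pattern of 5.84% of the 49474 regions over the genome that were in both lists of a genotype. Both ZEB2 places were thus of lower rank in the KO1 lists or absent from them, and both were in the lower part of the parental lists. Another summit, in parental replicate 2 alone, was at a percentile of 6.35 near the other end of the window.

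TWIST1, the basic helix-loop-helix member, had no summit in its 23 kb window in any of the 4 lists. The nearest summits on the low side were 26.1 kb away in parental replicate 1 (percentile 18.8) and 26.2 kb away in each KO1 library (28.6 and 1.74), but 95.5 kb away in parental replicate 2. On the high side they were 48.9 to 87.3 kb away. Empty stretches of this length were common along the genome, where 68.6% of 127705 stretches of 23 kb held no summit in any list. These stretches were laid without regard to genes, and windows at other genes were not compared. The lowest −log10 value in the lists was 1.31 to 1.40, and LSD1 signal under that threshold was not detectable in these files.

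VIM, the vimentin gene, carried the strongest LSD1 regions of the 6 windows. The first, chr10:17270529-17270629, had percentiles of 95.4 and 90.4 in the parental and 95.6 and 86.6 in the KO1 libraries. The genotypes overlapped, with a mean ± SD of 92.9 ± 3.54 for the parental and 91.1 ± 6.35 for the KO1 libraries (n = 2, exact permutation test, p = 1). The second, chr10:17280406-17280891, had percentiles of 94.1 and 85.9 in the parental and 96.7 and 93.6 in the KO1 libraries. Its summits lay at 17280891 and 17280406 in the parental and at 17280781 and 17280458 in the KO1 libraries. With summits joined at 250 bp, this second region was no longer in all 4 lists. Its mean ± SD was 90.0 ± 5.82 for the parental and 95.1 ± 2.21 for the KO1 libraries, which overlapped (n = 2, exact permutation test, p = 0.667). Of all regions in all 4 lists, 91.4% had a mean percentile at or below that of the first and 92.1% at or below that of the second.

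Between these regions, VIM had weak summits that stood at different places in each library. Only 1 of them joined over all 4 lists, chr10:17275042-17275953, at percentiles of 1.79 and 5.29 in the parental and 24.3 and 3.85 in the KO1 libraries, and its difference of 10.5 points was 0.307 without KO1 replicate 1. The other 4 were in 1 or 2 lists, at percentiles of up to 41.9. The region below the VIM window described above was higher in both KO1 libraries than in both parental libraries, by 10.5 points (exact permutation test, p = 0.333). There, KO1 replicate 1 exceeded parental replicate 2 by less than the parental libraries differed.

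**Figure D3:**
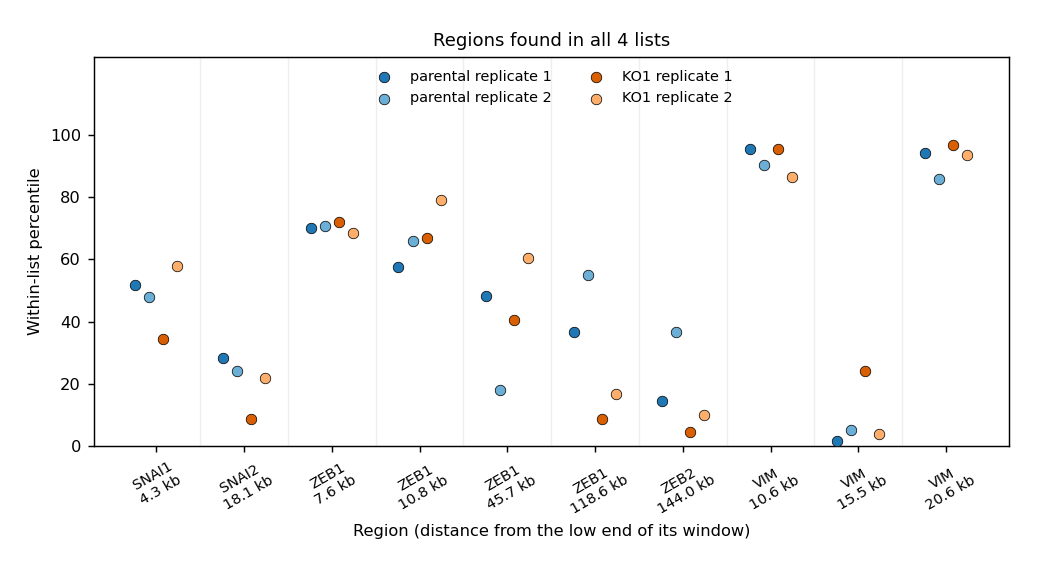
Within-list percentile (y axis) of the 10 regions found in all 4 lists, named by gene and distance from the low end of the window (x axis), with 1 point per library. The outer VIM regions are at 85.9 or above in every library, and the ZEB1 region at 118.6 kb, the ZEB2 region and the SNAI2 region have both KO1 points below both parental points.

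Set together, the shared regions showed no common direction between the genotypes. Both KO1 libraries were below both parental libraries at 3 of the 10, in SNAI2, ZEB1 and ZEB2, against 22.4% of the 35861 shared regions over the genome. Both were above at 1 of the 10, in ZEB1, against 19.6% over the genome, and the genotypes overlapped at the other 6. With summits joined at 250 bp, the SNAI2 and ZEB2 regions were no longer in all 4 lists, which left 1 of 6 below, in ZEB1 (21.9% over the genome), and 1 of 6 above (20.2%). With so few regions these shares were near the background. The median difference, KO1 minus parental, was -1.08 points over the 10 regions and -0.58 over the genome. Over the genome 5% of the differences were at or below -24.7 and 5% at or above 24.0, and of the 10 regions only the ZEB1 region at 118.6 kb was outside these bounds. Median differences of the shared regions within 5 Mb were between -0.98 and 0.40 at the 10 regions. A median over that distance cannot show a shift confined to nearer regions, which was not tested. The methods state that CUT&RUN was done 2 times, but neither they nor the labels say whether the replicates were separate cultures, so the spread between them may be technical.

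**Figure D4:**
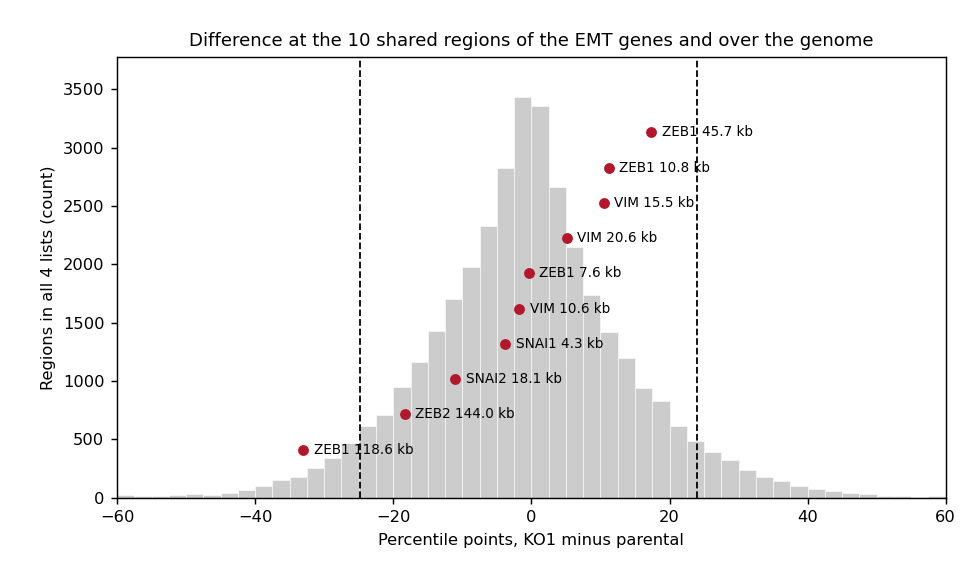
Difference in within-list percentile, KO1 minus parental (x axis), as a histogram of the 35861 regions found in all 4 lists (y axis, count; values beyond 60 are in the outermost bars), with dashed lines at its 5th and 95th percentiles. The 10 red points are the shared regions of the EMT genes, placed one above the other only to keep their names apart; the ZEB1 region at 118.6 kb, at -33.0, is the only one outside the lines.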

How the data were processed

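Summits were called by the authors in each LSD1 library by itself, with IgG libraries as input. The submitters' processing notes name FastQC 0.11.2, Bowtie2 2.3.3.1, Picard, MACS2 2.1.0 and hg19, and the calling threshold is not given in the sources used here. The deposited value of each summit is the −log10 of a p or q value. Peak widths, folds and sequencing depth were not used here, and the IgG libraries enter no value.

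Analysis used Python 3.11.15 with pandas 2.3.3 and numpy 2.4.6. Each summit was given a percentile, which is the percentage of summits in the same list whose −log10 value did not exceed its own. Autosomal and X-linked summits were joined at 500 bp, and a region belonged to a gene if 1 of its summits lay in the window. A region took the percentile of its highest summit. Single regions were tested between genotypes by exact permutation (two-sided, 2 libraries against 2), and means are given with the SD. Stretches of a window's length were laid from the first to the last summit of each chromosome, without regard to genes, so they are no like comparison for windows placed at genes. The steps were tested on simulated lists that held only the 35861 shared regions. Of 200 regions each, 200 removed from KO1, 193 removed from the parental lists and 200 raised in KO1 were recovered. The raised values were far above all others, so weak or scattered summits were not tested in this way.

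The genes, windows and lists were chosen with earlier results of these data known. By rule, values in every library are given for the strongest region of each window, shared regions at a mean percentile of 50 or more, and regions of 1 genotype only; the other shared regions were added after their values were seen. No annotation of GRCh37 was used, so regions were not assigned to promoters, exons or introns, and further EMT genes were not analysed here. Replicate numbers, distances of 250, 1000 and 2000 bp, other windows, shorter lists, other percentiles and each library left out were tried as alternatives.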

Additional observations from a re-analysis of the deposited data

How the results depend on the processing

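The counts of regions moved with the joining distance, the list length, the window edges and single libraries. Of the 10 regions in all 4 lists, 6 were found at 250 bp, where those of SNAI2 and ZEB2 and 2 of VIM were lost, and 4 in the upper 50% of each list; the count was 13 with windows widened by 5 kb and 10 at 1000 bp and 2000 bp. Regions in both parental lists and no KO1 list numbered 1, or 2 at 250 bp and 0 in the upper 50% of each list. The reverse numbered 1, or 0 in the upper 50% and 0 with windows narrowed by 5 kb, which leaves out its place near the edge. Leaving out single libraries gave 8 to 10, 1 to 6 and 1 to 2 for these counts; the 6 came without parental replicate 2, where parental replicate 1 alone represents its genotype.

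The median difference of -1.08 points was 4.83 in the upper 50% of each list, where 4 regions were left, and ranged from -2.16 to 2.02 with each library left out; the other settings gave -2.78 to -0.39. Fitting a replicate block on the numbers gave -1.08, the same as without it by arithmetic, and 0.5 is the least two-sided p of 2 pairs. Whether the replicate numbers pair the libraries is not given in the sources used here. In percentile, replicate 1 minus replicate 2 correlated by 0.00722 between the genotypes across 35861 regions. A correlation of ranks cannot show whether libraries of the same number were handled together. At the second VIM region the replicate 2 summits lay at 17280406 (parental) and 17280458 (KO1), and those of replicate 1 at 17280891 and 17280781. Whether both libraries of 1 genotype lay above both of the other does not depend on the block.

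The first ZEB1 region, at -0.39, turned to 0.207 with lists cut to the shortest, to 0.275 with percentiles among regions in all 4 lists and to 0.557 relative to the median within 5 Mb; the cause was not tested. With a library left out, the sign also turned at this region (-2.11 to 1.32), the SNAI1 region (-15.6 to 8.01), the first VIM region (-6.26 to 2.72) and the strongest VIM summit (-0.241 to 4.76). The other 114 of 117 values from settings that kept all libraries had the same sign as in the report. Many of these could not turn, because each list had 1 summit per shared region and the block is the same by arithmetic. A region that was no longer in all 4 lists under a setting gave no value there. The count is therefore no measure of stability. The strongest summit of a window and the 2000 bp distance were chosen after seeing the data. Library depth is unknown, so the smallest readable difference in rank is too.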
